A study of Rattus norvegicus with 6 samples.

Results

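The KLF transcription factors were followed in NRK-52E cells, a long-established rat cell line from the epithelium of kidney tubules. Their 10 members here, Klf2, Klf3, Klf4, Klf5, Klf6, Klf7, Klf9, Klf10, Klf13 and Klf15, were chosen by gene symbol, and all 10 were measured among 14217 genes. The cells of 3 arrays had been given a lentivirus with a hairpin RNA (shRNA) directed at AMPKα2. AMPKα2 is a catalytic part of AMP-activated protein kinase, through which cells sense low energy. Those of the other 3 arrays had received a control lentivirus. TGF-β1, a cytokine that induces epithelial-mesenchymal transition, was present in every culture at 10 ng/mL for 24 h, and cells without it were not analysed here. The hairpin's sequence and whether cells were pooled or cloned are not given in the sources used here. Each gene is described by whichever of its probe sets had the highest mean of 6 arrays, in deposited log2 units, where a difference of 1 is a 2-fold change. Differences are the AMPKα2 shRNA arrays minus the control arrays.

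KLF proteins share a set of C2H2 zinc fingers at their carboxyl end that bind GC-rich and CACCC-type DNA sequences, as the related SP factors do. Their other regions differ and recruit activating or repressing partners. Several members are quick to respond to growth factors, hormones, flow or injury, and in epithelia they are known for roles in differentiation and proliferation. In cells of the kidney, Klf4, Klf6 and Klf15 have been studied above all for injury and differentiation.

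Values of the probe sets on an array were less spread with the AMPKα2 hairpin, though their lowest and highest values were similar. Their SD was 1.76 to 1.82 on the AMPKα2 shRNA arrays and 2.17 to 2.19 on the control arrays, with medians of 6.04 to 6.05 and 5.82 to 5.83. A gene's change followed its level. The median difference was 0.81 among genes with control levels of 5 to 6 and -0.90 at 9 to 10, so each KLF gene is set beside genes of like control level below. Prkaa2, the gene of AMPKα2, stood at 6.64, 6.76 and 6.49 with the hairpin and at 6.83, 6.79 and 6.89 in control cells, without overlap, a difference of -0.21 that did not pass (limma, adjusted p = 0.0552). It passed as a fall in median-centred values (-0.42, adjusted p = 0.00145) and without AMPKα2 shRNA replicate 2 (-0.27, adjusted p = 0.0181). With its difference unchanged, it also passed with the mean of probe sets (adjusted p = 0.0446) and without the lowest 25% of genes (adjusted p = 0.0474). Prkaa2 has only 1 probe set. Its quantile-normalized and loess-scaled differences of -0.05 and -0.15 did not pass, nor did its difference when any other single array was left out. Among genes of like control level it stood at percentile 42.8. The groups are therefore named by their labels, not as a shown knockdown. Among tubule and epithelial markers Krt8 was high, at 12.24 and 12.49 in AMPKα2 shRNA and control cells. Cdh1 (4.74 and 4.31), Krt18 (3.86 and 3.53) and Epcam (3.47 and 2.97) were low. Aqp1 (7.58 and 6.18), Pax8 (7.77 and 6.57) and Slc5a2 (6.57 and 5.44) lay between. Of the 14 such markers measured, 12 rose and 1, Krt8, fell, with a median difference of 0.51. In quantile-normalized and in loess-scaled values 6 of the 14 rose and 1 fell. That 1 was Krt19 (-0.62 and -0.73), while Krt8 (-0.06 and 0.10) did not pass. Markers of other cell types had mean levels of 3.43 to 6.72 on the AMPKα2 shRNA arrays and 2.96 to 5.61 on the control arrays, and 11 of 12 rose, with a median difference of 0.94. Of all genes 43.6% rose, and those with control levels of 4 to 5 had a median of 0.79. In quantile-normalized and in loess-scaled values 8 of the 12 markers of other cell types rose, beside 43.8% and 40.2% of all genes. Their part in the KLF values was not tested.

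Of the 10 KLF genes, 6 fell (Klf3, Klf4, Klf5, Klf6, Klf10 and Klf13), 2 rose (Klf2 and Klf15) and 2 did not pass (Klf7 and Klf9) at an adjusted p of 0.05 in limma. Over all genes 85.1% passed, 43.6% higher and 41.5% lower, so a call by itself sets no KLF gene apart. At least a 2-fold change was found in 5 members, all lower, and in 30.2% of all genes. The median difference over the members was -0.97, beside 0.05 over all genes. The groups did not overlap in 7 members and in 87.1% of all genes. In bulk RNA, a change in level per cell and a change in the share of cells that express a gene cannot be told apart.

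**Figure D1:**
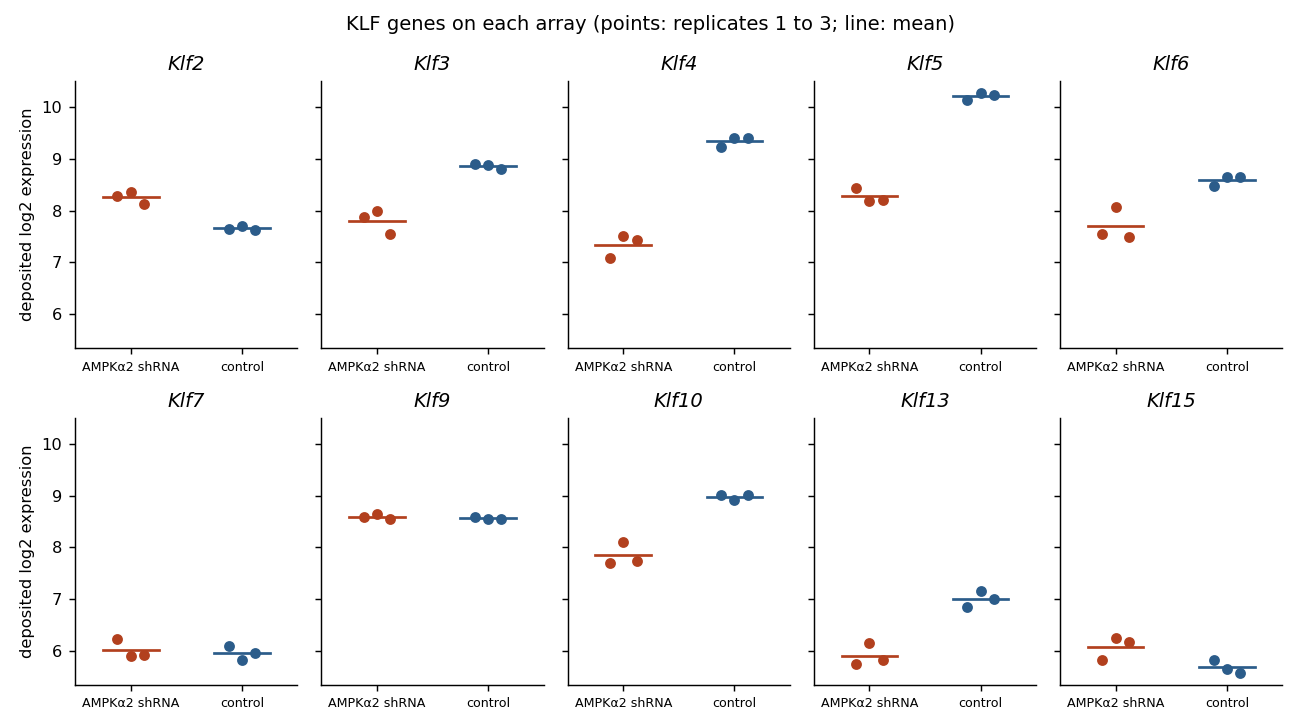
Deposited log2 expression (vertical axis) of the 10 KLF genes on each array, with the AMPKα2 shRNA arrays at left and the control arrays at right in each panel, points for replicates and a line for the mean. Klf4 and Klf5 show the widest gaps, with all AMPKα2 shRNA arrays below all control arrays, while the groups overlap for Klf7, Klf9 and Klf15.

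The largest falls were those of Klf4 and Klf5. Klf4 is a factor of epithelial differentiation and growth arrest, also known for its use in reprogramming cells to pluripotency. It stood at 7.07, 7.51 and 7.42 with the hairpin and at 9.23, 9.41 and 9.40 in control cells. Every AMPKα2 shRNA array was thus lower than every control array by more than the spread within either group. The mean was 7.33 ± 0.23 with the hairpin and 9.35 ± 0.10 in control cells (SD, n = 3 each), a log2 difference of -2.01 (SE 0.12, limma, adjusted p = 7.89e-08).

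Klf5, known for promoting the proliferation of epithelial cells in gut crypts of mice, stood at 8.44, 8.18 and 8.20 with the hairpin and at 10.13, 10.27 and 10.24 in control cells. These arrays did not overlap either. The log2 difference was -1.94 (SE 0.10, limma, adjusted p = 2.69e-08). A further 2 probe sets of Klf5, at control levels of 10.05 and 8.89, had differences of -2.15 and -1.87, which both passed. The fourth, at a low control level of 5.10, had a difference of 0.17 that did not pass. Klf4 was read by 1 probe set, so no second reading of its fall was available.

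Klf13, a repressor that recruits the SIN3A complex and is known for controlling the chemokine gene Ccl5 in T cells, also fell. It stood at 5.74, 6.15 and 5.81 on the AMPKα2 shRNA arrays and at 6.84, 7.16 and 6.99 on the control arrays. The groups lay apart although the 3 values of each were spread by SDs of 0.22 and 0.16. The log2 difference of its only probe set was -1.10 (SE 0.12, limma, adjusted p = 9.36e-06).

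Klf2 moved the other way. Klf2 is best known from endothelium, where laminar flow induces it through the kinase ERK5 and the MEF2 factors. It stood at 8.28, 8.36 and 8.12 with the hairpin and at 7.64, 7.69 and 7.62 in control cells, so that the lowest AMPKα2 shRNA array was above the highest control array. The rise was 0.60 (SE 0.09, limma, adjusted p = 8.08e-05). A further 3 of its probe sets rose by 0.63, 0.77 and 0.88, and the fifth, at a control level of 3.23 near the bottom of the range, had -0.06, which did not pass.

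Klf9 and Klf15 are known as genes that glucocorticoids induce. Klf9 acts as a repressor in hormone responses, and Klf15 controls amino acid and lipid metabolism and, in mice, podocyte differentiation. Klf9 had nearly the same deposited value in every array, 8.58, 8.64 and 8.54 with the hairpin and 8.59, 8.55 and 8.54 in control cells. The difference of 0.02 (SE 0.08) did not pass, and its spread within groups, 0.05 and 0.02 (SD), was the smallest of the members in both. Its other probe sets, at control levels of 6.22 and 4.26, rose by 1.01 and 0.49.

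Klf15 stood at 5.81, 6.25 and 6.16 with the hairpin and at 5.82, 5.63 and 5.57 in control cells. The groups overlapped at 1 array each, since the lowest AMPKα2 shRNA value lay just under the highest control value. The log2 difference of 0.40 (SE 0.12) passed (limma, adjusted p = 0.00983), and the other probe sets rose by 0.47 and 0.83 from low control levels of 3.23 and 4.45. Without AMPKα2 shRNA replicate 3 the main probe set's difference of 0.36 did not pass (adjusted p = 0.0532).

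The promoter windows of Klf5 and Klf9 are shown because, among members with a window and several probe sets, these genes stood lowest and highest beside genes of like control level (given below). RefSeq windows of assembly GRCr8, from 250 bases before to 50 after the annotated start, matched 7 of the 10 members, and Klf2, Klf10 and Klf13 were without one. Capitals mark CACCC, the core letters of many KLF sites, and GGGCGG, the GC box, each searched on both strands. Klf5 lies at chr15:82471831-82472130 on the plus strand and Klf9 at chr1:230126396-230126695 on the plus strand.
Klf5: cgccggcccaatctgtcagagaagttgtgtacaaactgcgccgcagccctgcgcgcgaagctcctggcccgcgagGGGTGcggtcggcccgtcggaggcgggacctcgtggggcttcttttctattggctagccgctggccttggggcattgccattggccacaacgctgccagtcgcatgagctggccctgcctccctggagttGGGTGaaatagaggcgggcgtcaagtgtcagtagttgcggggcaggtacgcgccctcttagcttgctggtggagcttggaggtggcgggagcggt
Klf9: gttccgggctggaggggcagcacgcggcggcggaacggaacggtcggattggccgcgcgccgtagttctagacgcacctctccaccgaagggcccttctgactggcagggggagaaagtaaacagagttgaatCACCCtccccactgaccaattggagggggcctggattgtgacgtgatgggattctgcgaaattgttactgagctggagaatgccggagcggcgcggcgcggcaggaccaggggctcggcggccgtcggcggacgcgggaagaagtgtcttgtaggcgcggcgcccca
The Klf5 window held 2 CACCC matches and the Klf9 window 1, and neither held a GC box. Among all 33469 windows of the same length, 54.9% held CACCC and 33.1% held the GC box. Letters AGAACA, core letters of many glucocorticoid receptor sites, were in neither window and in 20.7% of all windows. These matches describe the letters only.

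Klf10 and Klf6 are the members most tied to TGF-β and injury. Klf10 was first known as a TGF-β-inducible early gene and represses the inhibitory SMAD gene Smad7. It stood at 7.70, 8.10 and 7.73 on the AMPKα2 shRNA arrays and at 9.01, 8.91 and 9.02 on the control arrays. The groups did not overlap, and Klf10 fell by 1.14 (SE 0.11, limma, adjusted p = 3.36e-06), read by 1 probe set.

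Klf6, an early response gene of tissue injury that can activate TGF-β pathway genes, stood at 7.55, 8.07 and 7.49 with the hairpin and at 8.48, 8.65 and 8.64 in control cells. AMPKα2 shRNA replicate 2 was well above the other two, which gave Klf6 the largest SD of the members, 0.32, against 0.10 in control cells. The log2 difference was -0.89 (SE 0.14, limma, adjusted p = 0.00014), and its other probe sets fell by 0.72 and 0.64.

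Klf3, a repressor that works through the CtBP corepressors, stood at 7.87, 7.99 and 7.55 with the hairpin and at 8.90, 8.87 and 8.80 in control cells. All its AMPKα2 shRNA values were below the control values. It fell by 1.06 (SE 0.11, limma, adjusted p = 6.03e-06), and its other probe sets fell by 1.41 and 0.65. Klf7, known for the development of neurons, stood at 6.23, 5.89 and 5.91 with the hairpin and at 6.09, 5.81 and 5.96 in control cells. These groups overlapped, and the difference of 0.06 (SE 0.11) did not pass (limma, adjusted p = 0.636). Of its other probe sets, 2 rose, by 0.59 and 1.0 from control levels of 5.48 and 4.26, and 1 had 0.24, which did not pass.

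**Figure D2:**
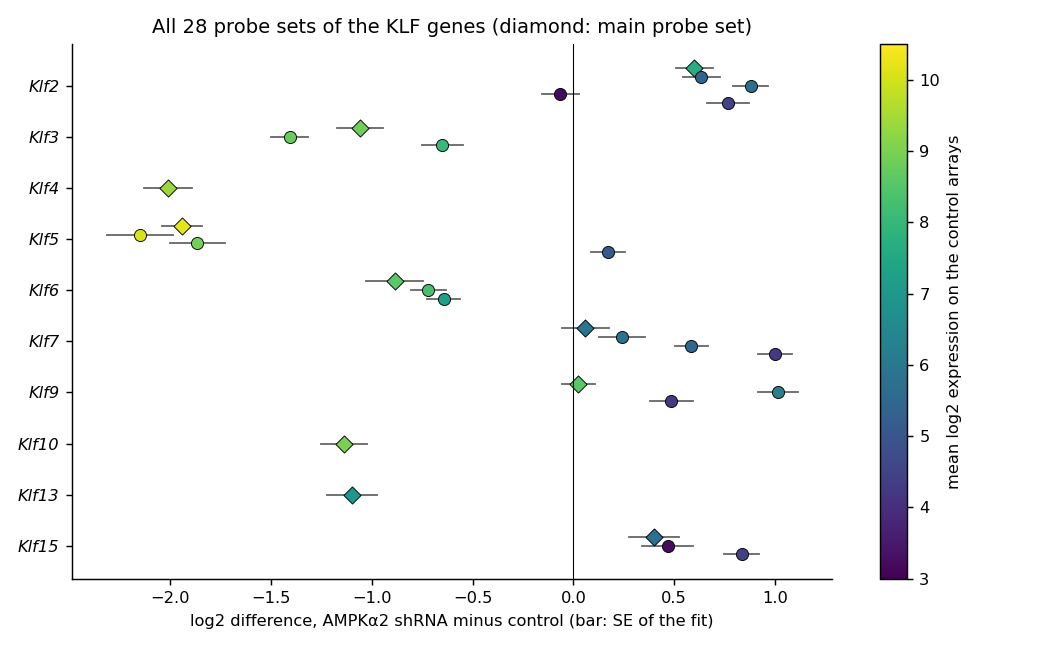
Log2 difference, AMPKα2 shRNA minus control, of each of 28 probe sets of the KLF genes (horizontal axis, bars for the SE of the fit), by gene, with diamonds for the main probe set and colour for the mean control level. For Klf3, Klf4, Klf5, Klf6, Klf10 and Klf13 every probe set above a control level of 6 lies left of 0, and the darker points at low levels lie at or right of it.

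Across the 28 probe sets of the KLF genes, 11 rose, 12 fell and 5 did not pass, where 47.8% of all probe sets rose and 34.1% fell. As deposited, none of the 7 members with several probe sets had some that rose and others that fell. In Klf3, Klf6 and Klf15 every probe set then passed 1 way. This depended on the scaling. The Klf2 probe set at a control level of 3.23 passed as a fall in quantile-normalized (-0.31), loess-scaled (-0.33) and median-centred (-0.28) values, where the main one rose. In loess-scaled values Klf7 had a probe set that fell (-0.31) and another that rose (0.42). The SD over replicates was larger on the AMPKα2 shRNA arrays for all 10 members, with medians of 0.22 there and 0.08 on the control arrays. The same held over all genes, at 0.132 and 0.072.

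Set beside genes whose control level lay within 0.5 of their own, the KLF genes fell into distinct positions, given here as a description without a test. Klf2 stood at percentile 91.6 of 2085 such genes, whose median difference was -0.45. Klf9, flat as deposited, stood at percentile 86.8, since genes of its level had a median of -0.76 and an interquartile range from -1.28 to -0.27. Both lay above the interquartile range of genes of like level. Their other probe sets did not all stand as high. Among probe sets of like level, the other 4 of Klf2 stood at percentiles 49.9, 69.4, 3.95 and 59.1, and the other 2 of Klf9 at 85.5 and 34.3.

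At the other end, Klf4 stood at percentile 8.91 and Klf5 at percentile 9.92, beside medians of -0.89 and -0.87 for genes of their levels. The other 3 probe sets of Klf5 stood at 7.91, 13.1 and 21.6 among probe sets of like level. Klf13 stood at percentile 13.7 beside a median of -0.15. Klf7, with no change as deposited, stood at percentile 24.6, just under the interquartile range of genes of its level, which ran from 0.07 to 1.01. Among probe sets of like level its main probe set stood at 35.1. The other Klf7 probe sets stood higher, at 39.5, 48.1 and 82.0.

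The other 4 members lay within the interquartile range of genes of like level. Klf3, Klf6 and Klf10 fell, but their differences from the median of such genes were only -0.23, -0.13 and -0.28, at percentiles 37.6, 42.4 and 35.4. Klf15 rose by 0.40 where genes of its level had a median of 0.77, which put it at percentile 29.4. By their main probe sets, 8 of 10 members lay below the median of their level and 2 above it. Outside the interquartile range, where 50% of genes lie by construction, were 6 members, Klf7 among them.

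**Figure D3:**
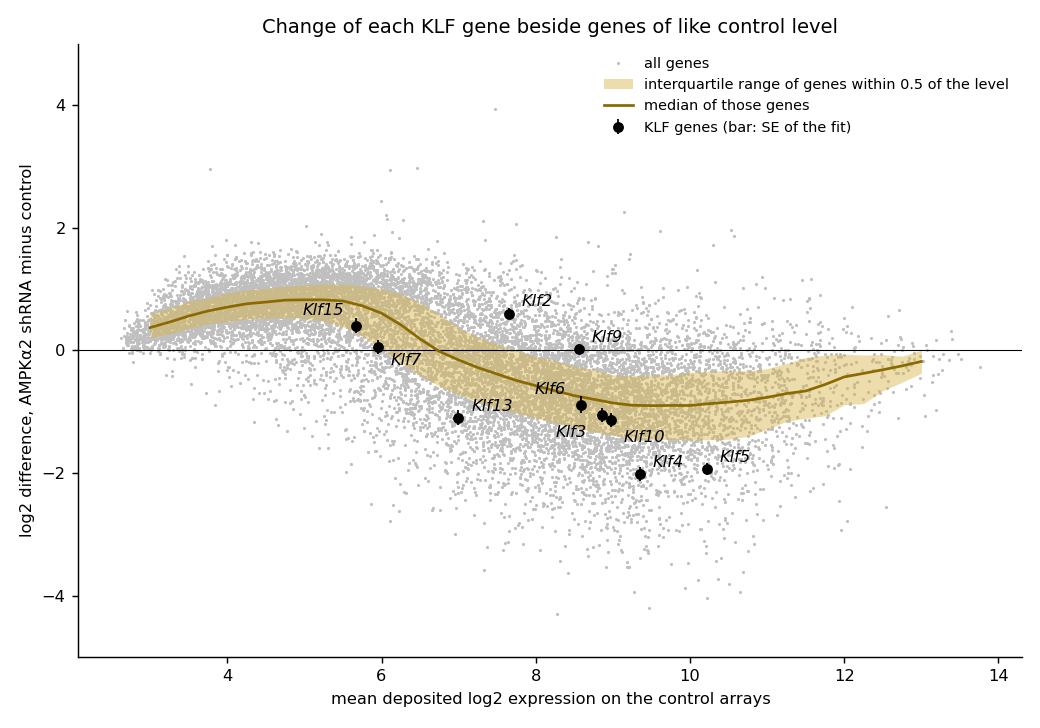
Log2 difference, AMPKα2 shRNA minus control (vertical axis), against mean log2 expression on the control arrays (horizontal axis), with grey points for all genes, a line and band for the median and interquartile range of genes within 0.5 of each level, and black points with SE bars for the KLF genes. Klf2 and Klf9 lie above the band, Klf4, Klf5 and Klf13 below it, Klf7 at its lower edge, and Klf3, Klf6, Klf10 and Klf15 inside it.

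The arrays were also rescaled, by quantile normalization, which gives every array the same distribution, by cyclic loess, which removes differences that follow level, and by centring each array on its median. Quantile-normalized values had 2 members higher and 5 lower, beside 43.8% and 28.9% of all genes. Loess-scaled values had 2 higher and 6 lower, beside 40.2% and 31.5%, and median-centred values 1 higher and 7 lower, beside 35% and 48.2%. Klf2 rose, and Klf3, Klf4, Klf5, Klf10 and Klf13 fell, in the deposited values and all 3 rescalings. These are 6 of 10 members, where 52% of all genes kept a call this way, 25.5% higher and 26.4% lower. Quantile-normalized and loess-scaled differences were -1.37 and -1.34 for Klf4 and -1.21 and -1.22 for Klf5. For Klf13 they were -1.12 and -1.21, close to its deposited -1.10.

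Klf2 rose by 1.21 and 1.20 in quantile-normalized and loess-scaled values, more than in the deposited ones. Klf9 rose by 0.74 and 0.73 in these scalings, and both passed (limma, adjusted p = 2.84e-05 and 1.79e-05). Its median-centred difference of -0.19 passed as a fall (adjusted p = 0.0429). The direction for Klf9 thus depended on the scaling. The falls of Klf3 and Klf10 were smaller than as deposited, at -0.37 and -0.39 for Klf3 and at -0.43 and -0.45 for Klf10.

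Klf6 had quantile-normalized and loess-scaled differences of -0.23 and -0.24, and neither passed. Klf15 had 0.18 in quantile-normalized, -0.02 in loess-scaled and 0.18 in median-centred values, and none of them passed. Klf7 had -0.31 in loess-scaled values, which passed as a fall (limma, adjusted p = 0.0325), while its probe sets averaged together gave a rise of 0.47. The median over the members was -0.30 in quantile-normalized, -0.35 in loess-scaled and -1.19 in median-centred values, where the median over all genes was 0.16, 0.09 and -0.17.

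**Figure D4:**
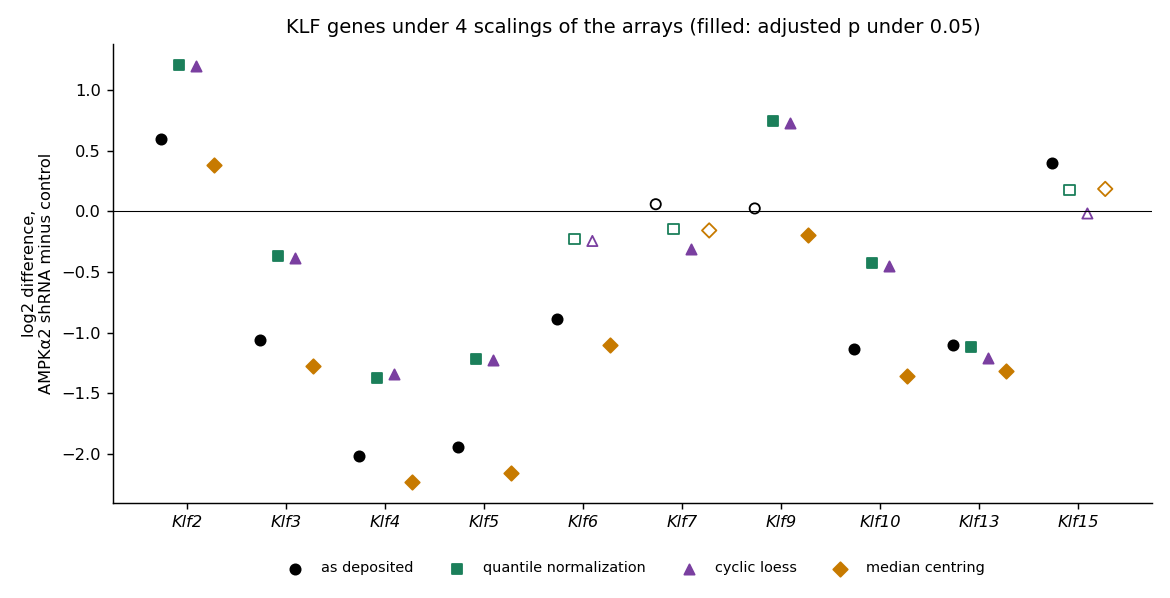
Log2 difference, AMPKα2 shRNA minus control (vertical axis), of each KLF gene as deposited and after 3 rescalings, with filled symbols where the adjusted p was under 0.05 in limma. Klf4, Klf5 and Klf13 stay below -1 in all 4 scalings, Klf2 stays above 0, and Klf7, Klf9 and Klf15 lie on both sides of 0.

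Of 17 other KLF and SP genes listed, 8 were measured, and 4 rose, 3 fell and 1 did not pass (87.5% called, beside 85.1% of all genes). Klf11, the closest relative of Klf10, rose by 0.93 (SE 0.09), with 6.88, 6.77 and 6.93 in hairpin cells and 5.90, 6.05 and 5.83 in control cells. Its probe sets were split, however, since another, at a control level of 5.04, had -0.53, which passed, so no direction can be given for Klf11 as a gene. Sp2, an SP factor that binds GC-rich promoters, fell by 1.0 (SE 0.08) and stood at percentile 1.38 of genes of like level.

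Upstream of the family, 18 of 20 listed regulators were measured, and 5 rose and 12 fell, beside 43.6% and 41.5% of all genes. In quantile-normalized values 9 rose and 4 fell, beside 43.8% and 28.9%. The glucocorticoid receptor gene Nr3c1 stood at 6.67, 6.34 and 6.67 with the hairpin and at 9.22, 9.20 and 9.16 in control cells. It fell by 2.63 (SE 0.10, limma, adjusted p = 5.97e-09), had -2.05 in loess-scaled values, and its other probe set, at a control level of 5.90, fell by 0.64. Fkbp5, a glucocorticoid-induced gene whose product restrains the receptor, stood at 5.22, 5.24 and 5.14 with the hairpin and at 7.83, 7.74 and 7.98 in control cells, and fell by 2.66 (SE 0.09). Tsc22d3 and Per1, which glucocorticoids also induce, moved less, and are named here after their values were seen. Tsc22d3 had -0.41 as deposited, 0.34 in quantile-normalized and 0.30 in loess-scaled values, and Per1 had 0.22, 0.77 and 0.74, all of which passed. Klf9 and Klf15, described above as glucocorticoid-inducible, had differences of 0.02 and 0.40 as deposited and of 0.73 and -0.02 in loess-scaled values. In median-centred values Klf9 passed as a fall (-0.19). A link of these genes to Nr3c1 was not tested.

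The MEF2 factors, which activate Klf2 and Klf4 downstream of ERK5, parted. Mef2c fell by 1.65 (SE 0.20), and both of its probe sets fell. Mef2a, at a control level of 9.18, fell by 0.96 (SE 0.10). Its difference was -0.21 in quantile-normalized values, which did not pass, and -0.25 in loess-scaled values, which passed. Mef2d rose by 1.12 (SE 0.08), with 8.35, 8.40 and 8.49 in hairpin cells and 7.30, 7.31 and 7.28 in control cells, and its other probe set had -0.19, which did not pass. Mef2b rose by 1.01 (SE 0.09) and Myocd, a coactivator of serum response factor, rose by 0.83 (SE 0.08) from a control level of 4.23, with 0.27 in loess-scaled values. Among genes of like level, Mef2b and Myocd stood at percentiles 71.4 and 58.1, within the interquartile range, as did Mef2a at 46.6. Mef2d stood at 97.4 and Mef2c at 0.78.

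All 13 measured cofactors of 14 listed passed, 2 higher and 11 lower, beside 43.6% and 41.5% of all genes. The list's median difference was -1.08 at a median control level of 9.22. Genes with control levels of 9 to 10 had a median of -0.90. In both quantile-normalized and loess-scaled values 2 and 8 of the cofactors kept these directions, as did 28.3% and 26.4% of all genes. Ctbp2, a corepressor of Klf3, fell by 2.31 (SE 0.08), to 7.39 with the hairpin, against 9.70 in control cells. The acetyltransferase genes Kat2b and Crebbp, whose products serve as coactivators, fell by 2.54 (SE 0.08) and 1.33 (SE 0.10), and all 5 probe sets of Crebbp fell. Sin3b and Sap30, parts of the SIN3 corepressor complex, rose by 2.07 (SE 0.10) and 1.63 (SE 0.10). Sin3b had a second probe set, at a control level of 8.56, which fell by 0.75, so its probe sets were opposed. Sin3a went the other way from Sap30. It fell by 0.89 (SE 0.08), with -0.59 in quantile-normalized and -0.63 in loess-scaled values, which both passed.

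Among enzymes that act on KLF proteins or their stability, 11 of 12 were measured, and 1 rose and 10 fell as deposited, while 4 were higher and 6 lower in quantile-normalized values. All 11 thus passed as deposited, as did 85.1% of all genes, 41.5% of them lower, and the quantile-normalized share lower over all genes was 28.9%. The list's median difference was -0.64 at a median control level of 8.32, and genes with control levels of 8 to 9 had a median of -0.74. The ubiquitin ligase genes Smurf1, Siah1 and Btrc had differences of -1.77 (SE 0.10), -1.52 (SE 0.08) and -1.31 (SE 0.08), which all passed. Another probe set of Siah1 rose by 0.24 at a control level of 3.71, and 1 of the 3 probe sets of Btrc did not pass. Smurf2, a close relative of Smurf1, rose by 0.39 (SE 0.12, limma, adjusted p = 0.00983), with 9.26, 9.0 and 8.76 in hairpin cells and 8.62, 8.60 and 8.64 in control cells, and both of its probe sets rose. Its difference was 1.11 in both quantile-normalized and loess-scaled values, and 0.17 in median-centred values, which did not pass (adjusted p = 0.195).

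Genes reported as KLF targets had no shared direction. Of 24 measured, 13 rose and 8 fell, their median was 0.40, and 3 missed the threshold, which makes 87.5% called, beside 85.1% of all genes (43.6% higher and 41.5% lower). Cyclin D1 and cyclin E1, cell cycle genes that Klf4 represses and Klf5 activates in other cells, were both lower. Ccnd1 fell by 2.79 (SE 0.08), to 9.24 with the hairpin, against 12.03 in control cells, and Ccne1 fell by 2.15 (SE 0.09). Bcat2, a branched-chain amino acid enzyme gene that Klf15 activates in muscle, fell by 1.54 (SE 0.09). The smooth muscle genes Tagln and Acta2, which Klf4 represses in smooth muscle cells, rose by 3.94 (SE 0.09) and 1.48 (SE 0.09), and Nppb, a natriuretic peptide gene, rose by 1.58 (SE 0.08). Over the whole list, 8 genes rose and 5 fell in deposited, quantile-normalized and loess-scaled values alike, beside 28.3% and 26.4% of all genes. The targets named here were taken from those 8 and 5.

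**Figure D5:**
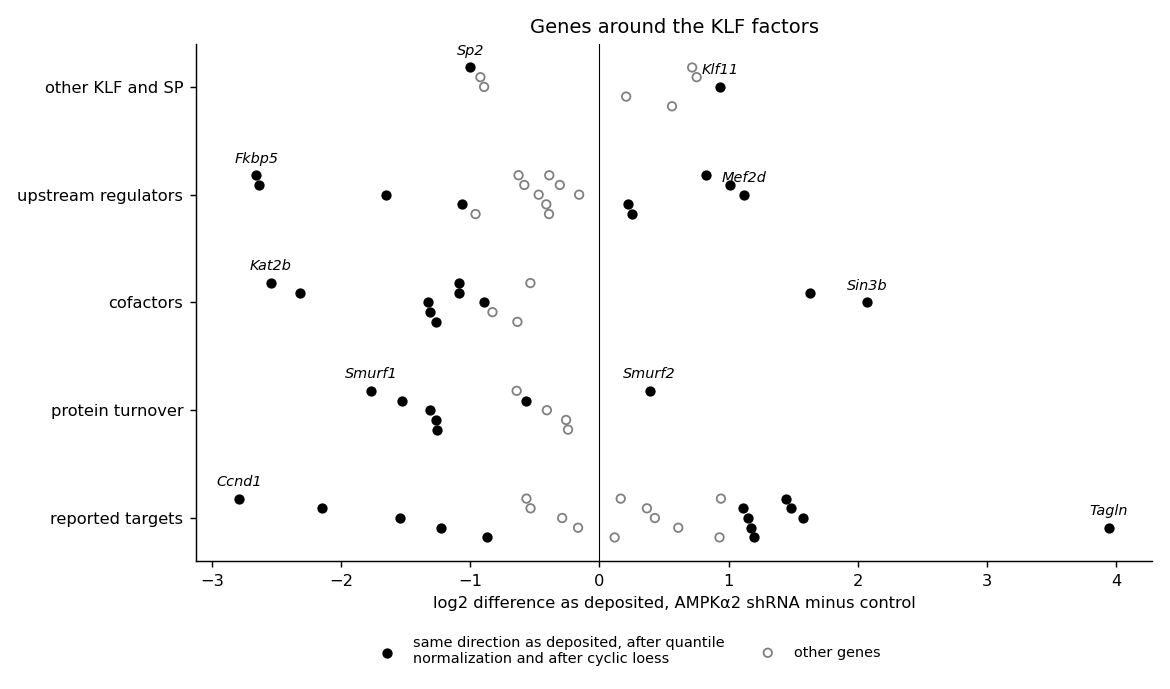
Log2 difference as deposited, AMPKα2 shRNA minus control (horizontal axis), of genes around the KLF factors, a row for each list, with filled points for genes that passed in 1 direction in deposited, quantile-normalized and loess-scaled values alike. The extremes of each row are named, such as Fkbp5 at -2.66 and Sin3b at 2.07.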

How the data were processed

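Expression was measured on 6 Affymetrix rat arrays, 3 per group, which the labels call biological replicates. Per the labels' protocols, RNA was extracted with Trizol and labelled as biotinylated cRNA. The authors deposited log2 values, 1 per probe set and array, and the sources used here do not give their background correction, summarization or normalization. Precision is limited by the number of arrays.

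Of 31099 probe sets, 57 array controls were left out. Of the others, 20826 had 1 gene symbol in the platform annotation, 436 several and 9780 none, and only the first were named. RefSeq (GRCr8) changed 0 symbols. The 2 groups were set against each other in limma 3.58.1 (R 4.3.3), without a filter or covariate and 2-sided, with Benjamini-Hochberg adjustment over 14217 genes, or over 31042 probe sets where other probe sets are given. Steps were tested on simulated data. An exact permutation test of 3 against 3 arrays cannot give a p under 0.1. Members and lists were chosen with earlier results of these data known. From each list, up to 3 higher and 3 lower genes were named. These had the largest change among genes that passed in the same direction in 3 scalings. Tsc22d3, Per1, Mef2a, Sin3a, Krt8, Krt19, Cdh1, Krt18 and Epcam were named outside this rule, and markers of other cell types were given as a list only. Alternatives covered scaling, probe set, filter, variance model, floor, replicate block and left-out arrays.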

Additional observations from a re-analysis of the deposited data

How the results depend on the processing

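The median over the members, -0.97 as deposited, was -0.30 in quantile-normalized and -0.35 in loess-scaled values, and ran from -1.11 to -0.86 without each array. The number of KLF genes called, 8 as deposited, was 5 when at least a 2-fold change was also asked for, 6 without the lowest 50% of genes, and 7 to 8 without each array. It was 10, with 4 higher and 6 lower, both for the mean of a gene's probe sets and for its most variable probe set. Klf7 then passed as a rise, by 0.47 with the mean and 1.0 with the most variable probe set (limma, adjusted p = 0.000181 and 7.67e-07), and so did Klf9, by 0.51 and 1.01 (adjusted p = 0.000113 and 2.54e-06). The count of all genes called, 12095, was 6023 without the lowest 50% of genes, where fewer genes were tested, 4293 with at least a 2-fold change, and 11573 to 12024 without each array. Klf7, 0.06 as deposited, turned to -0.15, -0.31 and -0.16 in quantile-normalized, loess-scaled and median-centred values, and ran from -0.050 to 0.13 without each array. Klf9, 0.02 as deposited, turned to -0.19 in median-centred values and ran from -0.0024 to 0.047 without each array. Klf15 turned to -0.018 in loess-scaled values. The cause was not tested. Klf2, Klf3, Klf4, Klf5, Klf10 and Klf13 kept their direction and their call under each alternative in which they were tested, except that Klf2 was under the 2-fold limit. Leaving out the lowest 50% of genes removed Klf7, Klf13 and Klf15. Replicate numbers are shared between the groups, but same-numbered arrays did not deviate together, with correlations of -0.01, 0.01 and -0.07 over probe sets. With the replicate block, 12039 genes and 8 KLF genes passed. Percentiles among genes of like level moved by at most 7.33 points with a window of 0.25 or 1, or with the mean of 6 arrays as the level, alternatives chosen after seeing the data.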
